A study of Homo sapiens with 6 samples.

Results

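Catecholamine genes were followed in the human neuroblastoma line SH-SY5Y, left untreated or exposed to manganese. The set holds 9 of the 18132 genes with an unambiguous probe set, those that make, store, take back or break down dopamine and noradrenaline, namely TH, GCH1, DDC, DBH, SLC18A1, SLC18A2, SLC6A2, SLC6A3 and MAOA. Every probe set annotated with 1 gene symbol from this set was taken, which gave 23 of the 49395 deposited probe sets. The rule itself uses no measured value, but the set was proposed with earlier results of these data known. The data are 6 one-colour Affymetrix arrays of total RNA, 3 of untreated control cells and 3 of cells kept in 100 µM manganese for 24 h. The labels equate that dose to the median lethal concentration divided by 5, and they describe the medium as an even mix of MEM and F12 with serum. The arrays of a group are labelled biological replicates 1 to 3. The labels do not say that the replicates came from separate cultures, so p-values measure the spread between these samples. SH-SY5Y is 1 tumour-derived line, and both groups share its genotype.

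Catecholamine synthesis starts with tyrosine hydroxylase, encoded by TH, which needs iron and the cofactor tetrahydrobiopterin, and GCH1 makes the first step of that cofactor. The decarboxylase DDC then forms dopamine, a vesicular monoamine transporter (SLC18A1 or SLC18A2) loads it into vesicles, and the copper enzyme DBH converts it there to noradrenaline. Released transmitter is taken back by the noradrenaline transporter SLC6A2 or the dopamine transporter SLC6A3 and is oxidized by MAOA on the outer mitochondrial membrane. Sympathetic neuroblasts, the cells from which neuroblastoma arises, carry the noradrenergic form of this pathway.

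None of the 9 genes passed the test for a difference between manganese and control. The sizes were not even across the pathway, however. In bulk RNA, fewer cells that express a gene and less RNA per cell cannot be told apart. The vesicular transporter SLC18A1 was 1.43-fold higher in manganese, the noradrenaline transporter SLC6A2 was at 0.69 of its control level, and the cofactor enzyme GCH1 was 1.72-fold higher, while TH, DDC, DBH, SLC18A2, SLC6A3 and MAOA differed by 0.26 or less in size on the log2 scale. The threshold was a limma adjusted p of 0.05 over the 13407 genes tested, of which 0.142% passed; 0 of 9 therefore does not set the members apart. At an unadjusted p under 0.05 there were 3 of the 9 members, against 12.8% of all genes. They were 2 higher, against 5.97% of all genes, and 1 lower, against 6.85%. The 3 manganese arrays lay wholly above or wholly below the 3 controls for 3 members, against 19.8% of all genes. With so few members 1 gene more or fewer moves such a share a lot. The median difference of the 9 was 0.12 on the log2 scale, beside 0.02 for all genes tested.

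Control 1 stood furthest from the other arrays before any gene was considered. Its correlation with the others lay between 0.967 and 0.981 over the genes tested, and the pairs without it lay between 0.984 and 0.995. Spike-in RNA with a poly(A) tail, read by 12 probe sets, had a mean log2 value of 6.14 in control 1 and 5.81 in control 3, against 7.79 to 7.91 for control 2 and each manganese array. Along the main axis of variation (first principal component, 58.5% of the variance), control 1 was at -39.5 and control 3 at -6.7. Control 2, at 7.7, lay among the manganese arrays, at 5.2 to 19.0. Its highest correlation, 0.994, was with a manganese array, above the 0.992 of the closest control pair. Leaving out control 1 does not remove this split, and its part in the differences below was not tested. Values are therefore also given without control 1 or against control 2 alone where they matter. That last comparison has 1 control, whose variance is taken from the manganese arrays. Of 10 noradrenergic neuroblast markers, 8 were on the array with 1 gene symbol, and all 8 lay above the 40th percentile on the 6 arrays. The mean level of the 8 was 11.50 to 11.75 in controls and 11.35 to 11.47 in manganese, with no overlap. The largest differences were -0.71 for STMN2 and -0.58 for ISL1, both highest on control 1. Without control 1 these were -0.46 and -0.34, and against control 2 alone -0.27 and -0.26. PHOX2A went the other way, at 0.22, and the remaining markers lay between -0.15 and -0.026. None of the 8 passed the test, and their part in the differences below was not tested. The 40th percentile is a filter on dim signal and not a test of presence, since the glial marker GFAP and the T-cell marker CD3E also passed it. In the serotonergic list, TPH1 and TPH2, the enzymes that start serotonin synthesis, were below it on all arrays, while the transcription factor gene FEV lay above it on all 6, at a mean of 9.41 in controls and 9.43 in manganese. The list's mean over these 3 genes was 5.39 to 5.63 in controls and 5.49 to 5.66 in manganese. The mean of 7 mesenchymal-state markers was 5.69 to 5.95 in controls and 5.82 to 5.90 in manganese. YAP1 and CD44 of that list were below the filter on every array. Within that list VIM, which encodes the filament protein vimentin, was 0.77 higher without overlap (limma adjusted p 0.152). The matrix gene FN1 was at -0.49 with overlap (adjusted p 0.576), and was highest on control 1, at 7.07. Without control 1 VIM was at 0.89 and FN1 at -0.088, and against control 2 alone at 0.75 and 0.12. Their part in the differences below was not tested. The mean of 3 glial markers was 5.49 to 5.57 in controls and 5.47 to 5.51 in manganese. The 3 blood-cell markers averaged 4.38 to 4.49 in controls and 4.50 to 4.61 in manganese, also with no overlap. Of these, PTPRC, which marks all white blood cells, was below the filter on every array. The 3 cholinergic markers averaged 6.11 to 6.44 in controls and 6.44 to 6.49 in manganese, with overlap. Among them SLC18A3 was 0.40 higher without overlap (limma adjusted p 0.327), while CHAT was at 0.028 and SLC5A7 at 0.031. For SLC18A3 the difference was 0.28 without control 1 and 0.17 against control 2 alone. No gene of these lists passed the test.

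The search covered 5 promoter windows of members in the RefSeq table (GRCh38.p14), for DDC, DBH, SLC18A2 and MAOA. The chromosome of SLC18A1 was left out, so its absence here does not mean that it has no window. The 5 windows ran from 250 bases before a start to 50 after it. They were searched on both strands for the cyclic AMP response element TGACGTCA (called CRE), its core TGACG, the AP-1 site TGANTCA and the EGR site GCGNGGGCG. The core lies within every CRE and is counted there too. The windows of DBH (chr9:133636113-133636412, plus strand), SLC18A2 (chr10:117240864-117241163, plus strand) and MAOA (chrX:43656049-43656348, plus strand) are shown because they differ most in these letters, with matches in capitals.
DBH: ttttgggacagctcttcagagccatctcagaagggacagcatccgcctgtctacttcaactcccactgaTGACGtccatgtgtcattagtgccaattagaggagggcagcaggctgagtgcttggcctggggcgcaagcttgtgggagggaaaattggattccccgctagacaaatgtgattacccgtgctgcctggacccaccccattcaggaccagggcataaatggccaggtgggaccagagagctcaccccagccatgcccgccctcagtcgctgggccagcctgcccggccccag
SLC18A2: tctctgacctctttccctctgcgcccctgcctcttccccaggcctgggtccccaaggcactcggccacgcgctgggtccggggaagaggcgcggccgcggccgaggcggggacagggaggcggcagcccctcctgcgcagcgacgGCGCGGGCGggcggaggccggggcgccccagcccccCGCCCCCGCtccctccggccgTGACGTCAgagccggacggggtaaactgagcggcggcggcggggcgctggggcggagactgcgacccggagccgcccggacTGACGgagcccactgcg
MAOA: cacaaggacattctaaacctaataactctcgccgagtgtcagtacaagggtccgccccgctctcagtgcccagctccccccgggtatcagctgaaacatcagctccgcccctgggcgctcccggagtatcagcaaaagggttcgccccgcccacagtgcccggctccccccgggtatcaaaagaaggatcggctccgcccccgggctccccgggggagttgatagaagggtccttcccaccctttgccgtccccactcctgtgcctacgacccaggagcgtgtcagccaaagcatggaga
The SLC18A2 window held 1 CRE, 2 EGR sites and 3 matches to the core, 2 of which are the arms of the CRE. The DBH window held 1 match to the core, at base -181 from the start. The MAOA window and both DDC windows held none of the 4 motifs. Among all 35116 windows of that table, 1.85% held a CRE, 24.6% the core, 7.71% an AP-1 site and 9.43% an EGR site. A match is only a match of letters. None of the genes whose windows were searched passed the test.

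**Figure D1:**
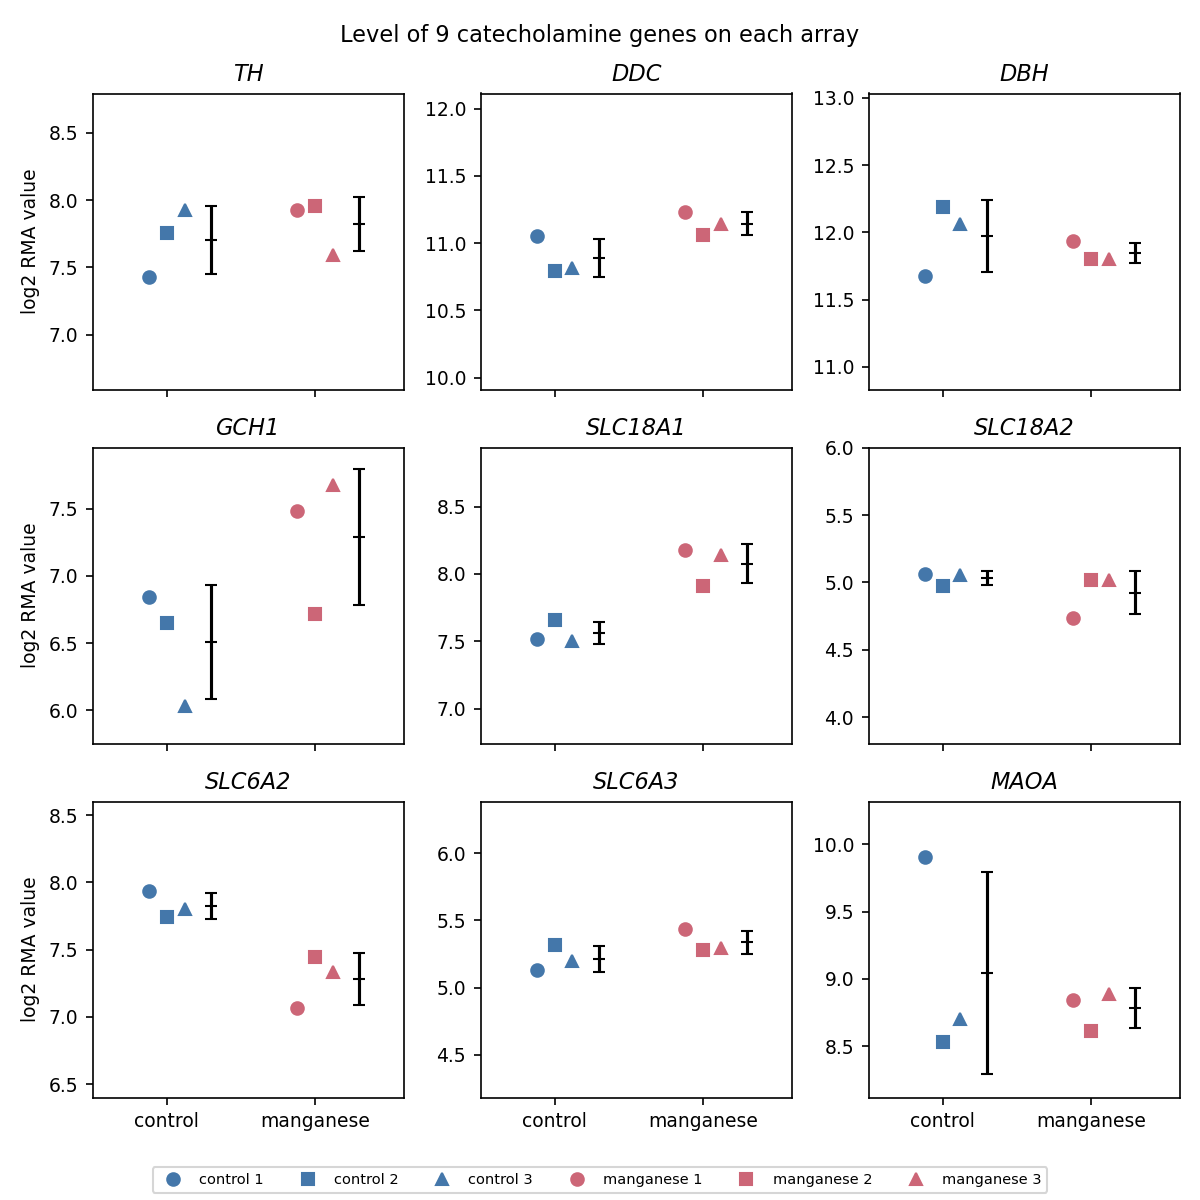
Log2 RMA value of each of the 9 genes on each array (points), with the mean and SD of each group (black, n = 3). Every panel spans the same log2 range. SLC18A1 is higher and SLC6A2 lower on all 3 manganese arrays, the DDC groups are set apart by 0.01, and MAOA is high on control 1.

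Among the synthesis enzymes, GCH1 had the largest difference. TH, the rate-limiting enzyme, read 7.43, 7.75 and 7.93 in controls 1 to 3 and 7.93, 7.95 and 7.59 in manganese 1 to 3. The groups overlapped, with control 1 the lowest array. The difference was 0.12 on the log2 scale (95% interval -0.25 to 0.49, adjusted p 0.780), and -0.02 without control 1. The interval leaves room for a level between 0.84 and 1.41 times that of controls. The other TH probe sets gave 0.22 and 0.19, with overlapping groups.

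GCH1, which commits GTP to tetrahydrobiopterin, read 6.84, 6.65 and 6.03 in controls and 7.48, 6.72 and 7.67 in manganese. Manganese 1 and 3 lay above every control, but manganese 2 lay among them. The group means were 6.51 ± 0.42 and 7.29 ± 0.51 (SD, n = 3). The difference of 0.78 (SE 0.28, 95% interval 0.13 to 1.44) was the largest of the 9 genes and had an adjusted p of 0.337. The second GCH1 probe set followed the first, at 6.96, 6.51 and 6.20 against 7.19, 6.62 and 7.65, a difference of 0.60. Leaving out single arrays moved the GCH1 difference between 0.55, without control 3, and 1.07, without manganese 2. It was 0.95 without control 1 and 0.64 against control 2 alone. GCH1 was thus the member whose manganese arrays differed most from each other, by 0.95 from lowest to highest.

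DDC, which decarboxylates L-DOPA to dopamine, read 11.05, 10.79 and 10.82 in controls and 11.23, 11.06 and 11.14 in manganese. The manganese arrays all lay above the controls, but the gap between manganese 2 and control 1 was only 0.01. The difference was 0.26 (SE 0.12, 95% interval -0.01 to 0.53, adjusted p 0.405), 0.34 without control 1 and 0.35 against control 2 alone. The second DDC probe set gave 0.19, from 5.98, 6.13 and 6.04 to 6.18, 6.29 and 6.24, again without overlap. The third, at a mean of 3.45 in controls, was below the filter on all arrays.

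DBH, which makes noradrenaline and is read by 1 probe set, was at 11.67, 12.19 and 12.06 in controls and at 11.93, 11.81 and 11.80 in manganese. All 3 manganese arrays lay inside the span of the controls, above control 1 and below the other two. The difference was -0.13 (95% interval -0.47 to 0.21, adjusted p 0.739). It was -0.28 without control 1 and -0.34 against control 2 alone, where the adjusted p was 0.499. It was -0.020 without control 2 and -0.017 with arrays centred on housekeeping genes.

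Of the vesicular transporters, SLC18A1 was higher on every manganese array and SLC18A2 was dim. SLC18A1, the form typical of endocrine cells, was at 7.52, 7.65 and 7.50 in controls and at 8.18, 7.91 and 8.14 in manganese. Every manganese array lay above every control, with a gap of 0.25 between the groups. The means were 7.56 ± 0.08 and 8.08 ± 0.15 (SD, n = 3). The difference of 0.52 (SE 0.12, 95% interval 0.25 to 0.79) had the smallest p of the 9 genes, ranking 156 of 13407, and an adjusted p of 0.188. SLC18A1 is read by 1 probe set, so no second reading was at hand. The difference was 0.42 against control 2 alone, where its adjusted p was 0.492, and 0.47 to 0.60 when single arrays were left out.

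SLC18A2, the form typical of neurons, was close to the filter. Its brighter probe set lay at 5.07, 4.97 and 5.06 in controls and 4.74, 5.02 and 5.02 in manganese, a mean of 0.59 above the 40th percentile of the arrays. The difference was -0.11 (95% interval -0.38 to 0.16, adjusted p 0.714), and its only array outside the control span was manganese 1. Its other probe set was below the filter on all arrays and gave 0.11. A dim signal limits how large a drop either could show.

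The noradrenaline transporter SLC6A2, which returns noradrenaline to the cell, was lower in manganese at all 3 of its probe sets. The brightest read 7.93, 7.74 and 7.80 in controls and 7.07, 7.45 and 7.33 in manganese. All manganese arrays lay below all controls, with a gap of 0.30. The difference was -0.54 (SE 0.13, 95% interval -0.84 to -0.25), or 0.69 of the control level (0.56 to 0.84), with an adjusted p of 0.197. The dimmest of the 3 read 6.06, 6.27 and 6.17 against 5.58, 5.81 and 5.68, again without overlap, and gave -0.47. The third read 6.72, 7.43 and 7.43 against 6.81, 6.69 and 6.51 and gave -0.53, and there control 1 fell among the manganese arrays. Against control 2 alone the 3 probe sets gave -0.46, -0.58 and -0.76. Probe sets of 1 gene share the same RNA and are not further replicates.

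The dopamine transporter SLC6A3, which returns dopamine to the cell, was near background. Its brightest probe set read 5.13, 5.32 and 5.20 in controls and 5.43, 5.28 and 5.30 in manganese, with overlap, and differed by 0.12 (95% interval -0.13 to 0.37, adjusted p 0.646). Of its other 3 probe sets, 2 were below the filter on all arrays and the third passed on exactly 3 arrays. They gave 0.09 to 0.14. Against control 2 alone the brightest gave 0.02.

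**Figure D2:**
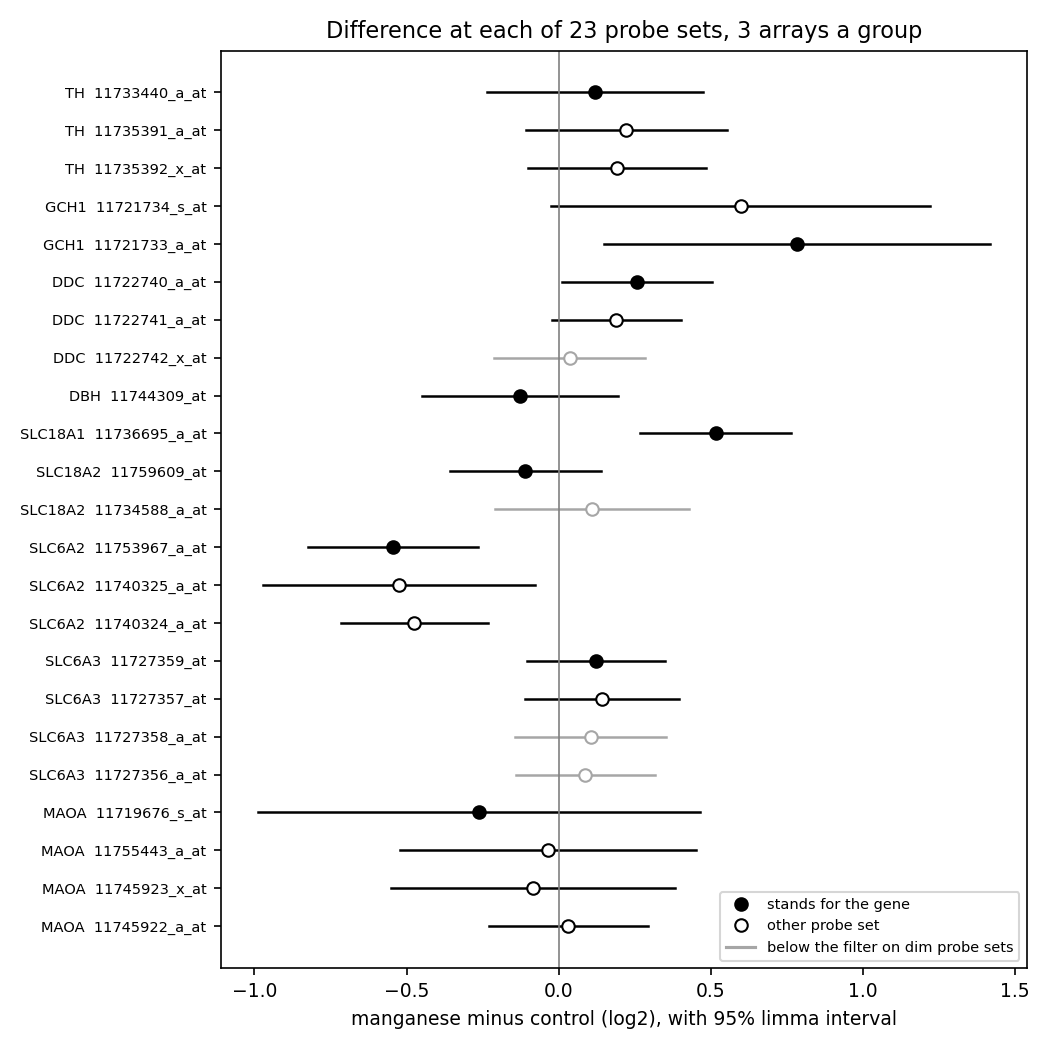
Manganese minus control on the log2 scale with its 95% interval at each of the 23 probe sets, from the fit on all probe sets without a filter. Filled points stand for the gene, grey ones lay below the filter. The SLC6A2 probe sets lie together at -0.54 to -0.47 and the 2 of GCH1 at 0.60 and 0.78. The intervals of all probe sets of TH, DBH, SLC18A2, SLC6A3 and MAOA include 0. So do those of the GCH1 probe set at 0.60 and of the DDC probe sets at 0.19 and 0.036. In this fit the interval of the brightest DDC probe set runs from 0.01 to 0.50.

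MAOA, which oxidizes the amines taken back into the cell, stood out on control 1. Its brightest probe set read 9.90, 8.53 and 8.70 in controls and 8.85, 8.61 and 8.89 in manganese. Control 1 lay above all other arrays, and the 3 manganese arrays lay close to control 2 and control 3. The SD of the controls was 0.75, against 0.15 in manganese. The difference was -0.26 (SE 0.33, 95% interval -1.01 to 0.49, adjusted p 0.756), and it turned to 0.17 without control 1 and to 0.25 against control 2 alone. Control 1 was also the highest array at 2 more MAOA probe sets, at 8.47 and 7.69. At the dimmest of the 4, which passed the filter, it was the lowest, at 4.65. Over the 6 arrays the 3 brighter probe sets correlated with each other at Pearson r of 0.87 to 0.99, and with the dimmest at -0.92 to -0.79. No direction can be given for MAOA.

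**Figure D3:**
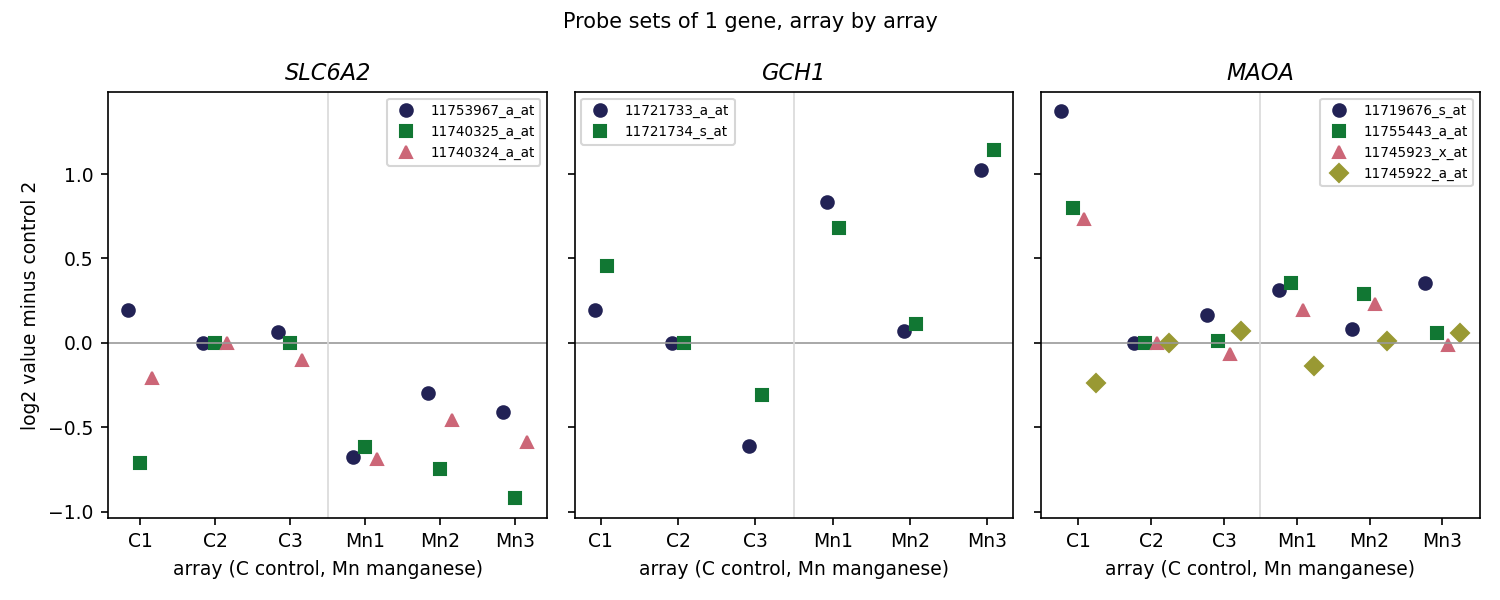
Log2 value minus that of control 2 for each probe set of SLC6A2, GCH1 and MAOA on the 3 control (C) and 3 manganese (Mn) arrays. The SLC6A2 points lie below 0 on all manganese arrays, the GCH1 points are near 0 on manganese 2, and 3 of the 4 MAOA probe sets are highest on control 1.

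Counted over probe sets, 19 of the 23 passed the filter, and the 9 that stand for the genes lay above it on all 6 arrays. In a fit on 49293 probe sets without a filter, 0 of the 23 passed by limma, against 0.0588% of all. At an unadjusted p under 0.05 there were 6 of 23, against 10.9%, and the groups did not overlap at 5, against 16.5%. The 6 were 3 from SLC6A2 and 1 each from GCH1, DDC and SLC18A1, so they come from 4 genes.

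Other genes of the pathway were counted from a list of 34, of which 26 were represented, 21 tested and 5 too dim, and 8 are not analysed here. By limma 0 of the 21 passed. At an unadjusted p under 0.05 there was 1 higher and 1 lower, against 5.97% and 6.85% of all genes. The groups did not overlap at 4 of the 21, against 19.8% of all genes. The median difference was 0.11, with 15 positive and 6 negative, beside 0.02 for all 13407 genes tested, of which 7259 were positive. CYB561, the cytochrome that supplies electrons for DBH inside vesicles, was at 11.76, 11.62 and 11.74 in controls and at 11.24, 11.28 and 11.38 in manganese. Its groups did not overlap, and the difference was -0.41 (adjusted p 0.219). Over the 9 probe sets of CYB561 the difference ran from -0.46 to 0.05. ADRA2C, an inhibitory adrenergic receptor that senses released noradrenaline, was at 9.19, 9.90 and 9.50 against 10.24, 10.20 and 9.94, a difference of 0.60 (adjusted p 0.293) that was 0.23 against control 2 alone. Its other probe set gave 0.39.

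The related receptors ADRA2B and ADRA2A differed by 0.18, without overlap, and by 0.22, with overlap. Without control 1 these were 0.10 and 0.12, and against control 2 alone 0.13 and -0.020. The dopamine receptor DRD2 differed by 0.29 and the organic cation transporter SLC22A2 by 0.21, without overlap in the second. Without control 1 these were 0.15 and 0.099, and against control 2 alone 0.091 and 0.11. ADRA2B was named after its values were seen, as the fourth gene of the list with groups apart. PNMT, which converts noradrenaline to adrenaline, differed by 0.34 and by -0.01 against control 2 alone. MAOB, the second monoamine oxidase, was at 9.44 in control 1 and between 8.98 and 9.16 on the other arrays, with control 1 highest as for MAOA, and differed by -0.16, with 0.0028 at its other probe set. Without control 1 the MAOB difference was -0.044, and against control 2 alone 0.037. GCHFR, the feedback regulator of GCH1, was below the filter and differed by 0.37. None of these passed. The 5 tested cofactor genes had a median of 0.00 and ran from -0.12 to 0.37.

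**Figure D4:**
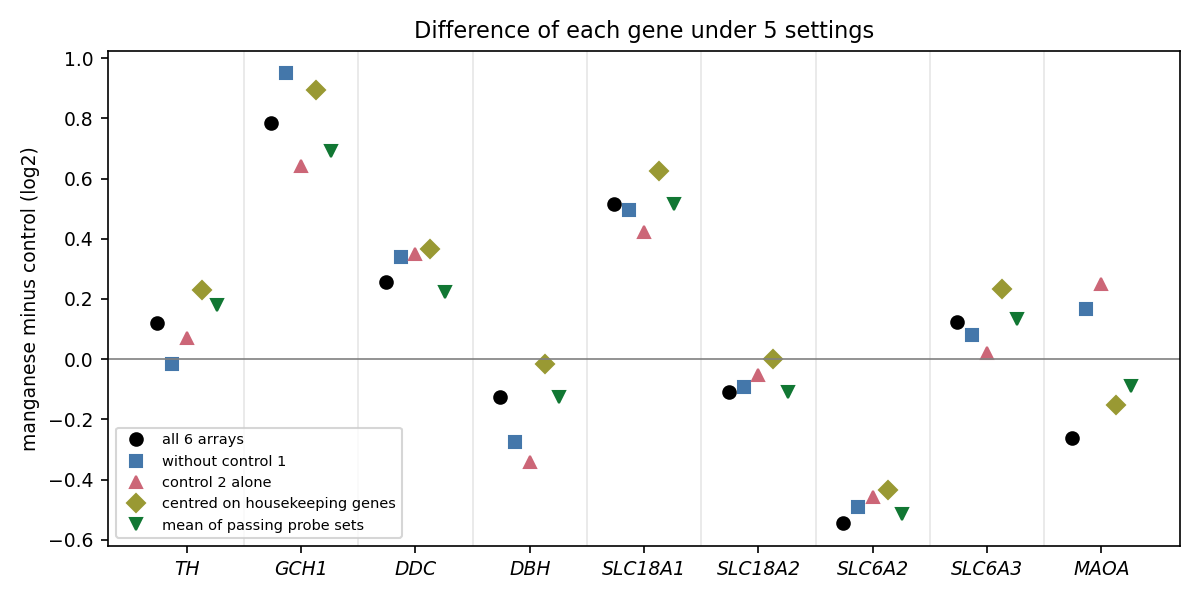
Manganese minus control on the log2 scale for each of the 9 genes with all arrays, without control 1, against control 2 alone, with arrays centred on housekeeping genes, and with the mean of the passing probe sets. GCH1, DDC and SLC18A1 stay above 0 and SLC6A2 and DBH below 0 in all 5, while MAOA and TH change sign without control 1.

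By pattern over the 6 arrays, the tested genes most like SLC6A2 were PPIF and CDH11, both at Pearson r = 0.996. Those most like SLC18A1 were PITPNC1 at 0.994 and LOC105379283 at 0.991, and those most like GCH1 were NDFIP2 at 0.992 and CCNC at 0.991. For MAOA they were MKRN2 at 0.998 and POLE3 at 0.997, for TH GP9 and CPLX2, for DDC MYNN and CISD1, for DBH SNAPC4 and MON1B, for SLC18A2 E2F8 and SUMO3, and for SLC6A3 APOC1 and ZSCAN20. Such values are easily reached with 6 arrays. An r over 0.95 was found for 86 genes with SLC6A2, 74 with SLC18A1 and 249 with MAOA.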

How the data were processed

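RNA was measured on 6 arrays, 3 control and 3 manganese. The authors deposited log2 expression values. The submitters' processing notes name RMA and Affymetrix Expression Console. RMA sets all arrays to one distribution, so a shift shared by most genes is removed. No version of either is given in the labels. Genes came from the platform annotation: 44988 probe sets had 1 symbol, 1832 several, 2473 are unnamed here and 102 controls were left out. A probe set passed (29871 did) if 3 or more of the 6 arrays had it above their 40th percentile, and the one with the highest mean stood for its gene, leaving 13407 genes.

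Manganese was compared with control in limma 3.58.1 (R 4.3.3, lmFit and eBayes), two-sided, with Benjamini-Hochberg adjustment over all genes tested and a threshold of 0.05. Probe sets that do not stand for a gene take their intervals from the fit on all 49293. Array number limits the precision. The scripts were tested on simulated data. The members, lists, markers, motifs and alternatives were chosen with earlier results of these data known. Named besides the members were the 6 pathway genes with the smallest unadjusted p, any past the threshold, those among MAOB, PNMT, GCHFR and 1 more counterpart that were analysed, and for each member the 2 tested genes of highest Pearson r. Alternatives changed the filter, probe set rule, variance model, scaling and pairing, and left out arrays. Same-numbered arrays of the 2 groups deviated from their group means with r of -0.30, 0.15 and -0.27. With 3 arrays a group, such values cannot decide whether the numbers pair the arrays.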

Additional observations from a re-analysis of the deposited data

How the results depend on the processing

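No member or other pathway gene passed under any alternative, probe sets tested singly included, and the smallest adjusted p of a member was 0.0779, for SLC18A1 without control 2. The count of all genes passing, 19, was less stable. It was 50 with arrays centred on the median (38 higher), 111 centred on 9 housekeeping genes (95 higher, where the median of all genes moved by 0.11), 5 against control 2 alone, 32 over single probe sets, and 0 to 43 when single arrays were left out (0 without control 3 or any 1 manganese array, with 832 to 1223 at an unadjusted p under 0.05, and 43 without control 2). With the replicate number as a block it was 6; the block leaves each difference as it is by construction. The cause of these shifts was not tested.

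SLC18A1, SLC6A2, GCH1, DDC, DBH and SLC6A3 kept their direction in all alternatives run. For SLC18A1, SLC6A2 and DDC the groups did not overlap, so leaving out arrays could not reverse it. The changed filters and variance model returned the same difference for each member they tested. DBH shrank to -0.017 with housekeeping centring and SLC6A3 to 0.020 against control 2 alone. TH ranged from -0.016 to 0.24 over the arrays left out. SLC18A2 was at 0.00090 with housekeeping centring, and its dim probe set ranged from -0.010 to 0.25 over the arrays left out. MAOA was at 0.25 against control 2 and ranged from -0.52 to 0.17 over the arrays left out. Its other probe sets, from brightest to dimmest, were at 0.23, 0.14 and -0.023 against control 2, the first 2 at 0.074 and 0.025 with housekeeping centring, and over the arrays left out ranged from -0.17 to 0.23, from -0.23 to 0.17 and from -0.059 to 0.094. The dim DDC probe set ranged from -0.035 to 0.12, and the dimmest of SLC6A3 was at -0.0012 against control 2. There PNMT was at -0.013, ADRA2A at -0.020 and MAOB at 0.037. With 3 arrays a group, the 95% intervals of the members were 0.498 to 1.501 wide on the log2 scale.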
